A study of Mus musculus with 4 samples.

Results

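The epidermal differentiation complex is a cluster of genes on mouse chromosome 3 that encode proteins of the outer skin. Its members were taken as all genes lying between 90511034 and 93564643 on build GRCm38, from the start of S100a1 to the end of S100a10, by their positions in GENCODE M21. Of 121 genes annotated there, 74 had a row in the count files, of 22524 genes in all. These were 14 S100 genes, 15 SPRR genes, 21 LCE genes, 6 fused-type genes and 18 other coding genes. The 46 pseudogenes and non-coding RNAs of the interval and the filaggrin gene Flg were not analysed here.

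RNA of 4 libraries was sequenced, made from tdTomato-positive cells that had been sorted out of dermal hyperplasia, a pre-tumorigenic growth in the mouse skin. The 2 libraries of the Ezh2Y646N group came from mice with Tyr::NrasQ61K and a conditional ColA1-LSL-Ezh2Y646N allele, which encodes a mutant of the histone methyltransferase Ezh2. The 2 libraries of the NrasQ61K group came from mice with Tyr::NrasQ61K and no Ezh2 allele named in the group's label. Both groups carried Tyr::CreERT2 and R26R-LSL-tdTomato and were given tamoxifen. Oncogenic Nras and the Cre recombinase were thus driven by the promoter of tyrosinase, the pigment enzyme of melanocytes, and the mutant Ezh2 and the red fluorescent label were to be switched on only where that recombinase was active. Ages were not given in the labels, and these do not say whether the numbered libraries of a group came from separate animals. The p-values therefore reflect only how far these libraries differed within a group, and that may be technical.

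The complex holds genes that keratinocytes switch on as they leave the basal layer. S100 genes encode small calcium-binding proteins, SPRR and LCE genes encode short proteins that are cross-linked into the cornified envelope, and the fused-type genes join an S100-like calcium-binding domain to a long stretch of repeats. Fused-type proteins serve different tissues: hornerin and filaggrin-2 belong to the granular and cornified layers of the epidermis, and trichohyalin to the inner root sheath and medulla of the hair. In mouse epidermal progenitors, unmutated Ezh2 is known for holding back differentiation genes of this complex, which is background on keratinocytes and not a result of these libraries.

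Total counts ranged from 14808801 to 20600297 per library. Of the 74 genes, 12 had 0 counts in every library, and 31 passed the filter on low counts and were tested. Of these 31, 3 reached a raw count of 10 in Ezh2Y646N libraries only (Lce1c, Crct1 and Lce1m) and 1 in NrasQ61K libraries only (Tchhl1). These 4 thus passed mainly through the group with the higher counts. The filter itself scales the minimum to library size and asks for it in as many libraries as a group holds. On that scale Crct1, with 9 counts in NrasQ61K replicate 1, lay close to the minimum there. Prr9 and Crnn, outside these 4, reached 10 counts in both NrasQ61K libraries but in only 1 Ezh2Y646N library. Levels are given as CPM, read counts scaled to library size with edgeR's TMM factors, and a positive log2 fold change means a higher level in Ezh2Y646N libraries. A gene was called when the p of edgeR's quasi-likelihood test, adjusted over all 14265 genes tested, was under 0.05. Ezh2 itself was at 135 and 91.6 CPM in Ezh2Y646N libraries and at 171 and 75.1 CPM in NrasQ61K libraries, and a count of the whole gene cannot separate transcripts of the mutant and the unmutated allele.

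Of the 31 tested genes, 6 rose and 2 fell in Ezh2Y646N libraries. Over all genes tested, 1.1% were called higher and 0.673% lower, so 25.8% of the tested locus genes were called, against 1.77% of all genes. The 6 that rose were Hrnr, Flg2, Lor, Kprp, 2310050C09Rik and Ivl, and the 2 that fell were Tchh and Prr9. An unadjusted p under 0.05 was found in 18 of the 31, which is 58.1%, against 14.3% of all genes. In 22 of the 31 the Ezh2Y646N and NrasQ61K libraries were fully apart, with 14 higher and 8 lower in Ezh2Y646N libraries; this is 71%, against 44.2% of all genes tested (21.1% higher and 23.1% lower). Without the 4 genes that passed mainly through 1 group, 27 remain, of which 8 were called (29.6%), 14 had an unadjusted p under 0.05 (51.9%) and 18 were fully apart (66.7%). Prr9, which was called, and Crnn are still among the 27. The shares of all genes were not recomputed without genes of that kind. The members were chosen with results of these libraries known, and no test was made of the share itself.

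The share of all genes called moved with the settings, and the members' count is to be read against it. Members called numbered 7 with RLE size factors, in limma voom, in a non-robust fit and when mitochondrial, haemoglobin and small RNA genes were removed, where 1.52%, 1.5%, 1.71% and 1.56% of all genes were called. Scaling to total counts only gave 10 members (2.29% of all genes), a stricter filter gave 9 (2.38%), DESeq2 gave 13 (6.5%) and no filter gave 20 (6.95%). Leaving out a library gave 6 members without Ezh2Y646N replicate 1 (0.63%), 6 without Ezh2Y646N replicate 2 (1.47%), 9 without NrasQ61K replicate 1 (2.95%) and 13 without NrasQ61K replicate 2 (7.66%).

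**Figure D1:**
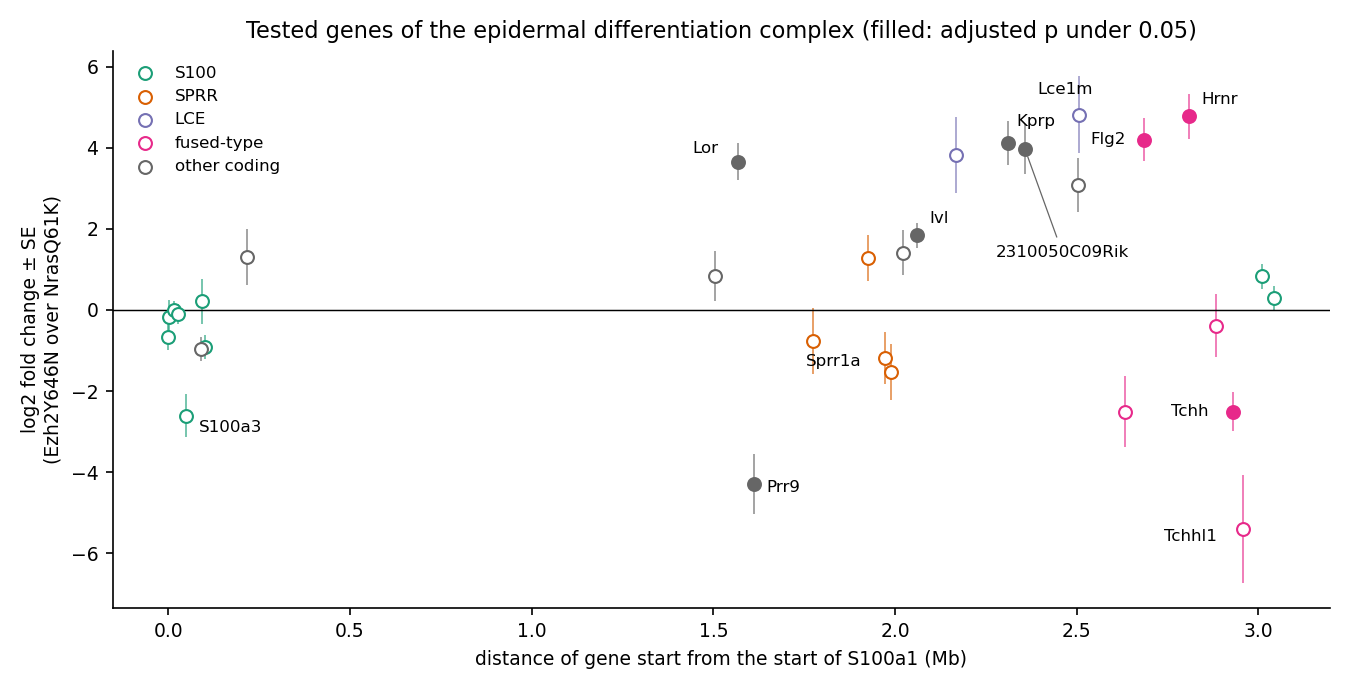
Log2 fold change of Ezh2Y646N over NrasQ61K with its standard error for the 31 tested genes, against the distance of each gene's start from the start of S100a1 in Mb, with colours for the subfamilies and filled points for called genes. The called increases lie from Lor to Hrnr, with Prr9 at -4.29 among them and Tchh at -2.51 beyond Hrnr.

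As a share of raw counts, the summed output of the locus was nearly the same in all 4 libraries, while its composition differed. Its 74 genes took 0.217% and 0.209% of counts in Ezh2Y646N libraries and 0.211% and 0.213% in NrasQ61K libraries, with 95% Wilson intervals that span at most from 0.207% to 0.219%. The log2 ratio of the mean shares was 0.0058, and the group means of 0.213% ± 0.00573 (Ezh2Y646N) and 0.212% ± 0.0017 (NrasQ61K; SD, n = 2 each) differed by less than that SD of the Ezh2Y646N libraries. With TMM factors the locus summed to 2261 and 2179 CPM in Ezh2Y646N libraries and to 1976 and 2109 CPM in NrasQ61K libraries, which do not overlap. Tchh alone made up 9.93% and 4.14% of the locus's counts in Ezh2Y646N libraries and 57.1% and 31.3% in NrasQ61K libraries. Hrnr and Flg2 together made up 30.8% and 30.7% in Ezh2Y646N libraries and 0.832% and 2.33% in NrasQ61K libraries. Without Tchh, the locus took 0.196% and 0.2005% of counts in Ezh2Y646N libraries and 0.0906% and 0.147% in NrasQ61K libraries, so that the near equality of the totals rests on that gene. These intervals cover counting error only, and 2 libraries against 2 cannot give an exact permutation p below 0.333. In bulk samples, fewer cells of a type and less RNA per cell cannot be told apart.

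**Figure D2:**
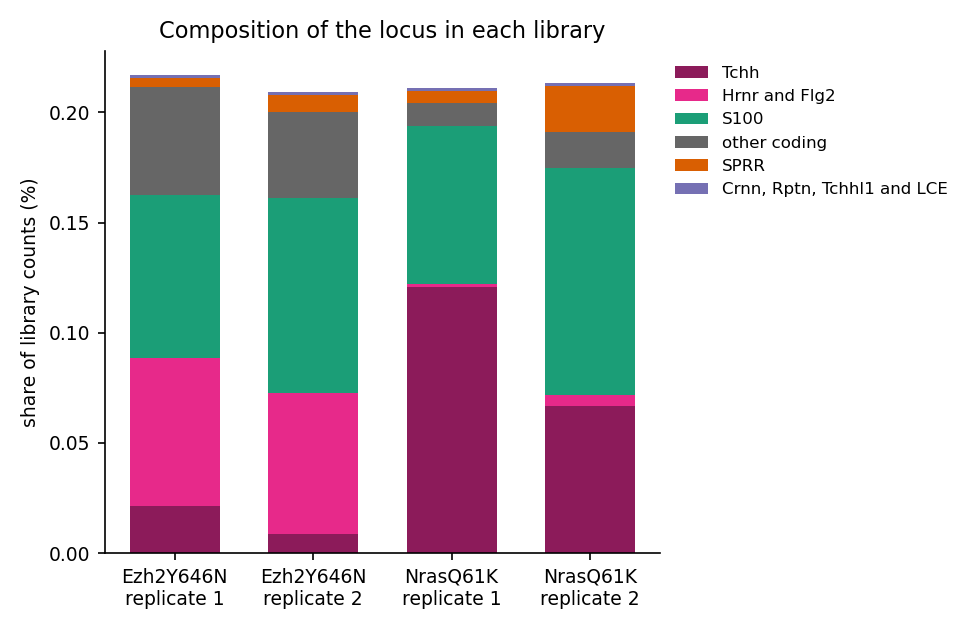
Share of each library's counts, in percent, that came from the locus, stacked by subfamily with Tchh and the pair Hrnr and Flg2 shown apart and Crnn, Rptn and Tchhl1 joined to the LCE genes. The bars end between 0.209% and 0.217%, and Tchh takes the largest part of the bar in NrasQ61K replicate 1.

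The fused-type genes moved in opposite directions. Of 6 tested, 2 rose (Hrnr and Flg2), 1 fell (Tchh) and 3 were not called; over all genes tested 1.77% were called. Hrnr (ENSMUSG00000041991, chromosome 3, 93319749 to 93333570, plus strand), which encodes hornerin, was at 319 and 156 CPM in Ezh2Y646N libraries and at 4.74 and 12.5 CPM in NrasQ61K libraries. Every Ezh2Y646N library was more than an order of magnitude above every NrasQ61K library. The log2 fold change was 4.77 with a standard error (SE) of 0.55 and an adjusted p of 0.022. Flg2 (ENSMUSG00000049133, 93197278 to 93221391, plus strand), which encodes filaggrin-2, was at 378 and 512 CPM in Ezh2Y646N libraries and at 11.7 and 36.6 CPM in NrasQ61K libraries. The groups did not overlap, and the log2 fold change was 4.198 (SE 0.53, adjusted p = 0.0268).

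Tchh (ENSMUSG00000052415, 93442330 to 93449077, plus strand), which encodes trichohyalin, was at 225 and 90.1 CPM in Ezh2Y646N libraries and at 1128 and 659.5 CPM in NrasQ61K libraries. The groups again did not overlap, but in the other direction, with a log2 fold change of -2.51 (SE 0.47). Its adjusted p of 0.0499 lay at the threshold. Its start is 108.8 kb beyond the end of Hrnr. In Ezh2Y646N libraries the Hrnr level was 1.42 and 1.73 times the Tchh level, and in NrasQ61K libraries the Tchh level was 238 and 52.9 times the Hrnr level, both as CPM without regard to length.

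The 3 other fused-type genes had low counts. Tchhl1, which encodes trichohyalin-like 1 and lies 19.7 kb beyond Tchh, had 2 and 1 counts in Ezh2Y646N libraries and 123 and 16 counts in NrasQ61K libraries. Most of its counts thus came from NrasQ61K replicate 1, and its log2 fold change of -5.40 (SE 1.33) was not called (adjusted p = 0.0989). Crnn, which encodes cornulin, was at 1.72 and 0.207 CPM in Ezh2Y646N libraries and at 3.48 and 7.82 CPM in NrasQ61K libraries, and its log2 difference was -2.51 (SE 0.88, adjusted p = 0.231). Rptn, which encodes repetin, was at 2.13 and 1.17 CPM in Ezh2Y646N libraries and at 0.948 and 3.36 CPM in NrasQ61K libraries, so that the groups overlapped (log2 fold change -0.39, SE 0.77, adjusted p = 0.895).

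Leaving out single libraries moved these values without turning the sign of any called gene. The log2 fold change of Hrnr ran from 4.17 (Ezh2Y646N replicate 1 left out) to 5.69 (NrasQ61K replicate 2 left out), and that of Flg2 ran from 3.60 (NrasQ61K replicate 1 left out) to 5.29 (NrasQ61K replicate 2 left out), all called. Tchh lost its call without Ezh2Y646N replicate 2 (-1.999, adjusted p = 0.111), without NrasQ61K replicate 1 (-2.07, adjusted p = 0.271) and without NrasQ61K replicate 2 (-2.80, adjusted p = 0.0528), and kept it without Ezh2Y646N replicate 1 (-3.31, adjusted p = 0.0259). It was also lost with size factors by relative log expression (RLE, adjusted p = 0.0523), in a non-robust fit (0.0511) and when mitochondrial, haemoglobin and small RNA genes were removed (0.0502). Repeats bear on the levels: 69.1% of the 50-base windows of the longest Hrnr transcript and 65.4% of those of Flg2 occur more than once in it, against 10.1% for Tchh, and reads from such windows may have been lost or placed by choice in counting. No 50-base window of these 3 genes was shared with a transcript of another gene.

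The other calls came from coding genes outside the named subfamilies, which include Lor and Ivl of the cornified envelope but also genes of other or unknown roles. Of 10 tested, 4 rose and 1 fell, where 1.1% of all genes were called higher and 0.673% lower. Lor (ENSMUSG00000043165, 92080271 to 92083142, minus strand), which encodes loricrin, the main protein of the epidermal cornified envelope, was at 24.8 and 58.4 CPM in Ezh2Y646N libraries and at 3.16 and 3.40 CPM in NrasQ61K libraries. It rose by 3.66 on the log2 scale (SE 0.45, adjusted p = 0.0247), and values without a single library ran from 2.91 (without Ezh2Y646N replicate 2) to 4.15 (without Ezh2Y646N replicate 1), all called. Ivl (ENSMUSG00000049128, 92570902 to 92573735, minus strand), which encodes involucrin, an early scaffold of the envelope, was at 250.4 and 177 CPM in Ezh2Y646N libraries and at 46.1 and 73.4 CPM in NrasQ61K libraries. Its log2 fold change of 1.84 (SE 0.30, adjusted p = 0.037) was the smallest of the called increases of the locus, and the call was lost without Ezh2Y646N replicate 1 (1.56, adjusted p = 0.0998).

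Kprp (ENSMUSG00000059832, 92823074 to 92827247), which encodes the keratinocyte proline-rich protein, was at 69.4 and 30.9 CPM in Ezh2Y646N libraries and at 1.64 and 4.03 CPM in NrasQ61K libraries. The log2 fold change was 4.12 (SE 0.55, adjusted p = 0.0275), and it ran from 3.43 (Ezh2Y646N replicate 1 left out) to 4.97 (NrasQ61K replicate 2 left out), both called. Its neighbour 2310050C09Rik (ENSMUSG00000090314, 92868359 to 92870216), 41.1 kb away, was at 90.2 and 55.0 CPM in Ezh2Y646N libraries and at 1.71 and 7.38 CPM in NrasQ61K libraries. It rose by 3.97 on the log2 scale (SE 0.62, adjusted p = 0.0323). The call was lost without Ezh2Y646N replicate 1 (3.58, adjusted p = 0.143) and without Ezh2Y646N replicate 2 (4.29, adjusted p = 0.0895), and the value without NrasQ61K replicate 2 was 5.45. Within a library, these genes did not keep a fixed ratio: Ivl was 3.61 and 5.72 times Kprp in Ezh2Y646N libraries and 28 and 18.2 times Kprp in NrasQ61K libraries.

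Prr9 (ENSMUSG00000056270, 92122204 to 92123947, minus strand), a proline-rich protein gene 39.1 kb from Lor, fell. It had 4 and 16 counts in Ezh2Y646N libraries and 281 and 167 counts in NrasQ61K libraries, which is 0.23 and 1.1 CPM against 17.8 and 8.01 CPM. The log2 fold change was -4.29 (SE 0.74, adjusted p = 0.0405). The call was lost without Ezh2Y646N replicate 1 (-3.53, adjusted p = 0.0648) and in limma voom (adjusted p = 0.0941), and the value was -5.77 without Ezh2Y646N replicate 2. The neighbours Lor and Prr9 were thus called in opposite directions.

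The 5 others of this class were not called. Crct1, a cysteine-rich protein gene beside the LCE genes, had 65 and 57 counts in Ezh2Y646N libraries and 9 and 7 in NrasQ61K libraries (log2 fold change 3.08, SE 0.66, adjusted p = 0.0691). The peptidoglycan recognition genes Pglyrp4 and Pglyrp3, whose products bind bacterial cell walls, were at 1.31 (SE 0.69, adjusted p = 0.468) and 0.85 (SE 0.61, adjusted p = 0.64) on the log2 scale. Pglyrp4 was at 20.7 and 20.6 CPM in Ezh2Y646N libraries and at 2.21 and 14.3 CPM in NrasQ61K libraries, so the difference came mainly from NrasQ61K replicate 1. The uncharacterised gene 2310046K23Rik was at 36.9 and 46.5 CPM in Ezh2Y646N libraries and at 6.26 and 24.8 CPM in NrasQ61K libraries (log2 fold change 1.42, SE 0.55, adjusted p = 0.291). Gm42674 shares 67.7% of its exonic bases with S100a4 and 32.3% with S100a3 on the same strand, so its counts cannot be told from theirs.

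**Figure D3:**
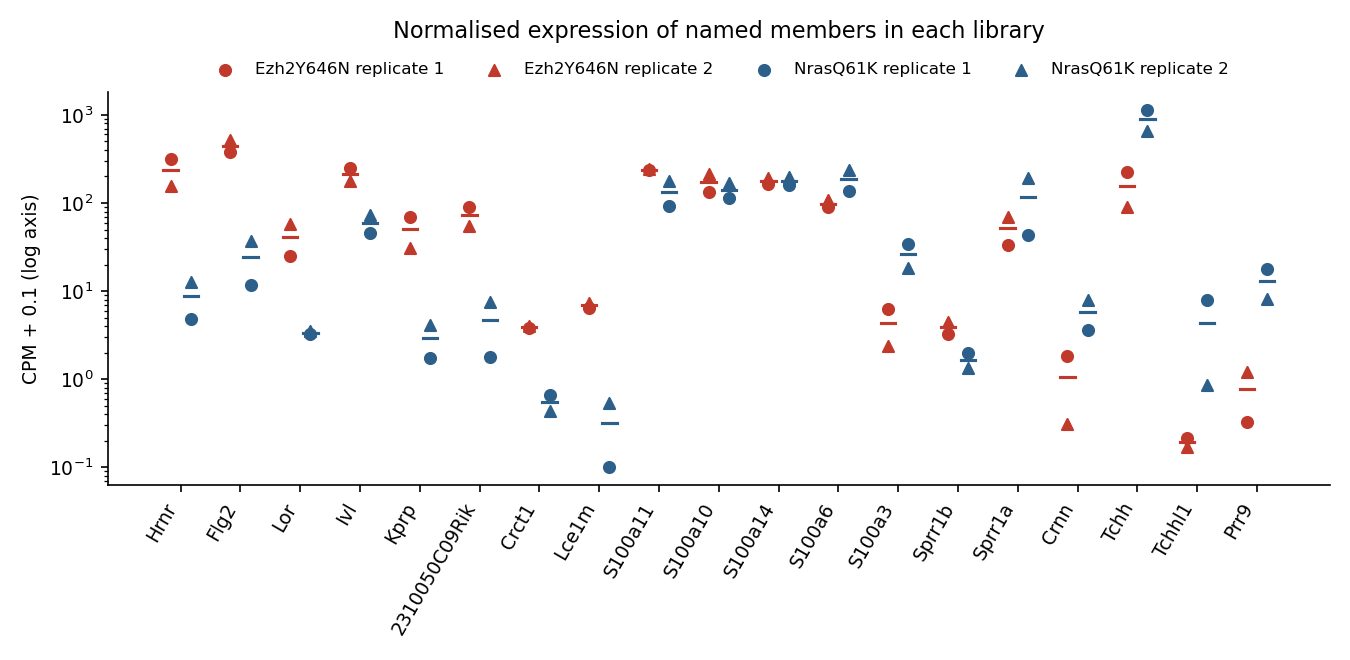
CPM with 0.1 added, on a log axis, of 19 members in each library, Ezh2Y646N in red and NrasQ61K in blue, with circles for replicate 1, triangles for replicate 2 and bars for the mean of each pair. Hrnr, Flg2, Lor, Ivl, Kprp and 2310050C09Rik are higher in both Ezh2Y646N libraries, Tchh and Prr9 are lower in both, and S100a14 and S100a10 overlap.

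The sequence before the start of 5 of these genes is shown, since neighbours that moved in opposite directions can be set side by side. RefSeq's table on GRCm38.p6 gave windows of 300 bases, from 250 before to 50 after the start, for 57 of the 74 genes. Capitals mark matches on either strand to the AP-1 motif TGANTCA or to the TATA box TATAAA, which do not overlap each other here.
Hrnr, chr3:93319499-93319798, plus strand: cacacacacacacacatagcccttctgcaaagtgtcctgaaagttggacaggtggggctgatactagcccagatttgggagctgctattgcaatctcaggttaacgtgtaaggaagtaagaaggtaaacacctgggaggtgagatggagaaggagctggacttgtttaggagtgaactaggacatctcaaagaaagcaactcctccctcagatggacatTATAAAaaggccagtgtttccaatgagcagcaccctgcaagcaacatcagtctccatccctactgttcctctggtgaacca
Flg2, chr3:93197023-93197322, plus strand: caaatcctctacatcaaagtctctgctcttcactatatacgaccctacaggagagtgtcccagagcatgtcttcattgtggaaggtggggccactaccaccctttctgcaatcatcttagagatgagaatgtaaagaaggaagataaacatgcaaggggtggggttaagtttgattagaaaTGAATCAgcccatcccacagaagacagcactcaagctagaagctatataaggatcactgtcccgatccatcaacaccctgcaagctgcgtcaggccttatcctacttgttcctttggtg
Tchh, chr3:93442080-93442379, plus strand: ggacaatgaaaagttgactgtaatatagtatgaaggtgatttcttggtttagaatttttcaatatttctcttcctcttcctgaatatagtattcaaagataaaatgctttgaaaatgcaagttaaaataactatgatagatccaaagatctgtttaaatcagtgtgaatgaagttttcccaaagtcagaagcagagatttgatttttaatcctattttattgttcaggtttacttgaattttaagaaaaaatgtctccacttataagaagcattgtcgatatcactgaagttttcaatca
Ivl, chr3:92573686-92573985, minus strand: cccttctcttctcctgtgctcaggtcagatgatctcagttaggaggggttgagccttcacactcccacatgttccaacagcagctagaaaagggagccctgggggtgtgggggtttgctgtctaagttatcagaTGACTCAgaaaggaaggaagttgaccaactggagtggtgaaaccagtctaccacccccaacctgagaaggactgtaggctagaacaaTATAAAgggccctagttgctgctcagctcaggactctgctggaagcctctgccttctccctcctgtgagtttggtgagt
Prr9, chr3:92123898-92124197, minus strand: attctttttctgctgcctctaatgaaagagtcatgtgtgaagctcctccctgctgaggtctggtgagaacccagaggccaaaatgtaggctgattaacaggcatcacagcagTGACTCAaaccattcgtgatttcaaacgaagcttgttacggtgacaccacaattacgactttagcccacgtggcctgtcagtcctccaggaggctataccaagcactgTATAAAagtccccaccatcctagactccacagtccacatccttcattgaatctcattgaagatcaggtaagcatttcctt
Counted in bases from the start, the AP-1 letters begin at -69 in Flg2, at -116 in Ivl and at -138 in Prr9, and the TATA letters at -31 in Hrnr, at -29 in Ivl and at -30 in Prr9. The Tchh window holds neither. Its annotated start falls on the letters ATG, so the window may lie just before the coding sequence and need not hold the promoter. An AP-1 match was present in 29.5% of the 61 windows of the locus, against 7.81% of all 32851 windows of the table, and a TATA match in 41%, against 13.6%. Both shares include Sprr2b, Sprr2d, Sprr2e, Sprr2f, Sprr2h, Sprr2i and Sprr2k, which belong to a group of close copies and were not tested. Among the 27 windows of tested locus genes the shares were 40.7% and 44.4%. Of the called genes, the AP-1 letters stood in the windows of Flg2, Ivl and Lor, which rose, and of Prr9, which fell. They were absent from those of Hrnr and 2310050C09Rik, which rose, and of Tchh, which fell. A match is a description of letters and not a bound site.

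No S100 gene was called. Of 14 in the files 9 were tested, of which 3 lay above 0 on the log2 scale and 6 below. Their median log2 fold change was -0.09, beside -0.04 over all genes tested. In edgeR an unadjusted p under 0.05 was found for 3 of the 9, beside 14.3% of all genes. DESeq2, which called 6.5% of all genes, called 1 (S100a3), and limma voom called 0. S100a11, whose product is a component of the cornified envelope, was at 238 and 240.1 CPM in Ezh2Y646N libraries and at 92.6 and 176 CPM in NrasQ61K libraries (log2 fold change 0.83, SE 0.32, adjusted p = 0.282). It was called without NrasQ61K replicate 2 (1.41, adjusted p = 0.00513), and 41.1% of its 50-base windows also occur in transcripts of other genes. S100a10, the partner of annexin A2 at the end of the locus, was at 135 and 212 CPM in Ezh2Y646N libraries and at 114 and 168 CPM in NrasQ61K libraries, which overlap (0.30, SE 0.30, adjusted p = 0.769).

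S100a14, an epithelial S100 gene, was at 164 and 192 CPM in Ezh2Y646N libraries and at 161 and 198 CPM in NrasQ61K libraries, a log2 fold change of -0.01 (SE 0.23) that was 0.0049 with RLE size factors and 0.0048 in DESeq2. S100a6, which encodes calcyclin, was at 89.9 and 107 CPM in Ezh2Y646N libraries and at 135 and 236 CPM in NrasQ61K libraries (-0.91, SE 0.30, adjusted p = 0.201). It was called without NrasQ61K replicate 1 only among the single libraries left out (-1.26, adjusted p = 0.0133). S100a11 and S100a6 stood in different order in the groups: the S100a11 level was 2.64 and 2.24 times that of S100a6 in Ezh2Y646N libraries and 0.686 and 0.747 times in NrasQ61K libraries, as CPM without regard to length. S100a1, a calcium sensor best known from muscle, at the start of the locus, was at 25.7 and 31.6 CPM in Ezh2Y646N libraries and at 31.9 and 59.0 CPM in NrasQ61K libraries (-0.67, SE 0.33, adjusted p = 0.429).

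S100a3, which encodes a cysteine-rich S100 protein of the hair cuticle, had the largest difference of the tested S100 genes. It was at 6.15 and 2.28 CPM in Ezh2Y646N libraries and at 33.8 and 18.1 CPM in NrasQ61K libraries, which did not overlap. The log2 fold change was -2.61 (SE 0.52), and the adjusted p of 0.0564 missed the threshold. It was 0.0263 when Ezh2Y646N replicate 1 was left out, 0.0868 when Ezh2Y646N replicate 2 was, 0.0661 when NrasQ61K replicate 1 was and 0.00576 when NrasQ61K replicate 2 was. The remaining tested members S100a13, S100a16 and S100a4 had log2 fold changes between -0.16 and 0.21, with overlapping groups. S100a8 and S100a9, whose products form calprotectin, the abundant calcium-binding complex of neutrophils, did not pass the filter. Together they had 10 and 1 counts in Ezh2Y646N libraries and 1 and 139 counts in NrasQ61K libraries, so that nearly all came from NrasQ61K replicate 2. Of 11 neutrophil markers, 3 and 8 were at 0 in Ezh2Y646N libraries and 8 and 6 in NrasQ61K libraries. Ly6g was at 0 in every library, and Retnlg, Ltf, Mmp8 and Camp had counts in Ezh2Y646N replicate 1 only. Csf3r had 2 and 4 counts in Ezh2Y646N libraries and 8 and 22 in NrasQ61K libraries. The list's summed level was 4.48 and 2.97 CPM in Ezh2Y646N libraries and 9.80 and 12.4 CPM in NrasQ61K libraries. Mmp9 made up most of that sum in NrasQ61K libraries, at 9.23 and 10.6 CPM, while in Ezh2Y646N libraries Mmp9 was at 1.84 and 1.04 CPM and Cxcr2 at 1.49 and 1.66 CPM.

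The SPRR genes gave no call. Of 15 in the files 4 were tested, 1 with a log2 fold change above 0 and 3 below (median -0.97), and edgeR gave 0 of the 4 an unadjusted p under 0.05; DESeq2 and limma voom called 0. Sprr1a, which encodes a cross-bridging protein induced in stressed keratinocytes, was at 33.6 and 70.2 CPM in Ezh2Y646N libraries and at 43.3 and 191 CPM in NrasQ61K libraries. The high value belonged to NrasQ61K replicate 2 alone, and the log2 fold change of -1.18 (SE 0.64, adjusted p = 0.489) was 0.30 without that library. Sprr4 followed the same order of libraries, at 1.61 and 3.80 CPM in Ezh2Y646N libraries and at 3.41 and 12.04 CPM in NrasQ61K libraries (-1.53, SE 0.69, adjusted p = 0.378). Sprr1b was the member above 0, at 3.16 and 4.42 CPM in Ezh2Y646N libraries and at 1.90 and 1.25 CPM in NrasQ61K libraries (1.27, SE 0.57, adjusted p = 0.372).

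The Sprr2 genes are close copies, and 96.3% of the 50-base windows of Sprr2a1, 96.5% of those of Sprr2a2 and 61.1% of those of Sprr2a3 occur in transcripts of other genes. Their 11 genes together had 38 and 24 counts in Ezh2Y646N libraries and 16 and 89 counts in NrasQ61K libraries, which overlap. Sprr2a3 was the single tested gene of the group (-0.76, SE 0.82, adjusted p = 0.787). Counts of single Sprr2 genes are uncertain for this reason.

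LCE genes were detected mainly in Ezh2Y646N libraries, at low levels. Their 21 genes together had 238 and 159 counts in Ezh2Y646N libraries and 6 and 21 counts in NrasQ61K libraries, which is 13.7 and 10.98 CPM against 0.379 and 1.01 CPM. Counts above 0 were found for 15 and 10 of the 21 genes in Ezh2Y646N libraries and for 3 and 7 in NrasQ61K libraries. Lce1m supplied the most, with 110 and 105 counts in Ezh2Y646N libraries and 0 and 9 in NrasQ61K libraries, where a count of 0 allows up to 0.19 CPM. Its log2 fold change was 4.82 (SE 0.95) and its adjusted p 0.0525, just past the threshold; it was called without NrasQ61K replicate 1 (3.95, adjusted p = 0.0165) and without NrasQ61K replicate 2 (9.77, adjusted p = 0.00133), a fold that depends on the prior count because the remaining library was at 0. It was not called when Ezh2Y646N replicate 1 (adjusted p = 0.12) or Ezh2Y646N replicate 2 (0.0955) was left out. Lce1c had 33 and 20 counts in Ezh2Y646N libraries and 2 and 2 in NrasQ61K libraries (3.82, SE 0.94, adjusted p = 0.0989).

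Both tested LCE genes passed the filter through Ezh2Y646N libraries only, so their calls are no support for a difference of the family. In edgeR 0 were called and both had an unadjusted p under 0.05, while DESeq2 called both and limma voom called 0. The untested members of highest level were Lce1a1, with 14 and 5 counts in Ezh2Y646N libraries and 0 and 1 in NrasQ61K libraries, and Lce6a, with 10 and 7 against 3 and 1. The 6 Lce3 genes, whose human counterparts are known from injured and psoriatic skin, together had 5 and 1 counts in Ezh2Y646N libraries and 0 in both NrasQ61K libraries. Between 9.12% and 27.1% of the 50-base windows of most Lce1 genes occur in other transcripts, mainly of other Lce1 genes, but no window of Lce1m does.

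Per length, the order of the genes differed between the groups and between the NrasQ61K libraries. Divided by exonic length, S100a11 was at 465 and 469.8 CPM per kb in Ezh2Y646N libraries, the highest of the locus in both, and at 181 and 345 CPM per kb in NrasQ61K libraries. Tchh was at 38.6 and 15.5 CPM per kb in Ezh2Y646N libraries and at 194 and 113 CPM per kb in NrasQ61K libraries, so that it stood above S100a11 in NrasQ61K replicate 1. Sprr1a was at 41.6 and 87.1 CPM per kb in Ezh2Y646N libraries and at 53.7 and 237 CPM per kb in NrasQ61K libraries, second to S100a11 in NrasQ61K replicate 2 alone. S100a10, Ivl and S100a14 followed S100a11 by mean level in Ezh2Y646N libraries, at 143, 111 and 103 CPM per kb, and the range of Ivl overlapped those of the other two. The long genes Flg2 and Hrnr were at 21.4 and 21.2 CPM per kb in Ezh2Y646N libraries and at 1.16 and 0.769 CPM per kb in NrasQ61K libraries, so they ranked lower per length than by counts. These levels take the union of annotated exons as the length and are lowered for Flg2 and Hrnr if reads in repeats were lost.

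Along the chromosome the signs of the fold changes ran in stretches. From 2310046K23Rik to Lce1m 7 tested genes in a row had a log2 fold change above 0, and from S100a1 to Gm42674 6 in a row had one below 0. Between these lay Lor beside Prr9, and Sprr1b beside Sprr1a and Sprr4, with opposite signs. Crnn, below 0, separates Lce1m from Flg2 and Hrnr, after which Rptn, Tchh and Tchhl1 were below 0 and S100a11 and S100a10 above. Of the 7 genes above 0, Lce1c, Crct1 and Lce1m reached 10 counts in Ezh2Y646N libraries only. The filter thus fixed the sign of Lce1c and Lce1m, as it did for Tchhl1 below 0. Crct1 lay close to the scaled minimum in NrasQ61K replicate 1, so that its sign was favoured by the filter but not fixed. Of the 6 below 0, S100a13 (-0.16), S100a14 (-0.01) and S100a16 (-0.09) lay near 0 and changed sign without some single libraries. Gm42674 among them shares its exonic bases with S100a3 and S100a4. No test was made of these stretches.

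Few genes on either side of the locus were called, as was so over all genes. Of all genes tested in edgeR, 1.77% were called and 14.3% had an unadjusted p under 0.05. In the 3 Mb before S100a1, 95 genes were tested, of which 0 were called in edgeR and 10 had an unadjusted p under 0.05, with a median log2 fold change of -0.06. In the 3 Mb after S100a10, 66 genes were tested, of which 1 rose, 0 fell and 13 had an unadjusted p under 0.05, with a median of 0.08. The gene that rose was Cgn, which encodes the tight junction protein cingulin, at 162 and 157 CPM in Ezh2Y646N libraries and at 60.2 and 48.5 CPM in NrasQ61K libraries (1.55, SE 0.23, adjusted p = 0.0299). The nearest tested genes outside were Chtop at -0.21 (SE 0.22) before and Them4 at -0.90 (SE 0.45) after the locus, neither called. Next to Them4, the thioesterase gene Them5 was at 2.41 (SE 0.49, adjusted p = 0.0574).

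**Figure D4:**
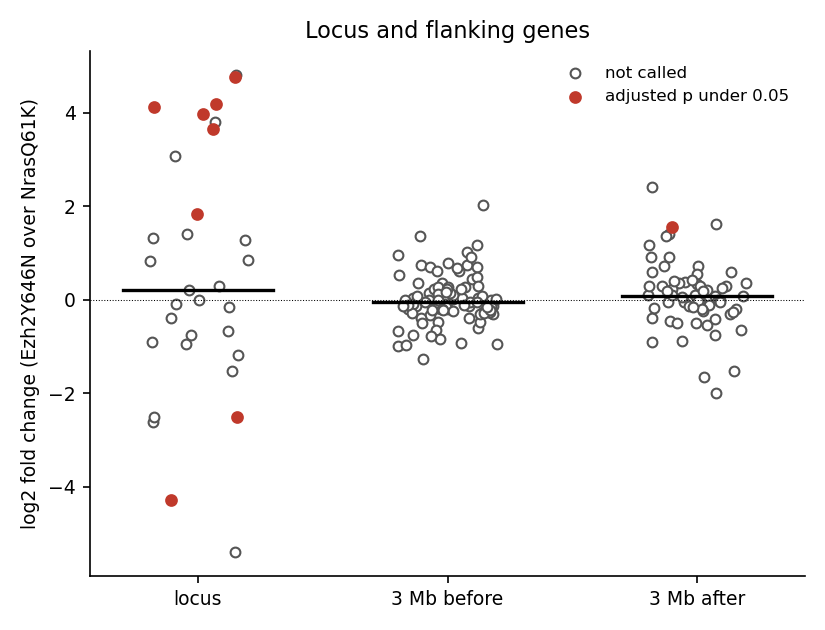
Log2 fold change of Ezh2Y646N over NrasQ61K for tested genes of the locus (31), of the 3 Mb before it (95) and of the 3 Mb after it (66), with called genes filled in red and bars at the medians of 0.21, -0.06 and 0.08. Values of the locus run from -5.40 to 4.82 and those of the flanks from -1.99 to 2.41.

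Of genes of cornification elsewhere in the genome, those that passed were higher in Ezh2Y646N libraries, where 1.1% of all genes were called higher. Of 15 suprabasal keratins and linkers, all tested, 5 rose and 0 fell, with a median of 2.53. The strongest by p were the keratins Krt78 (3.35, SE 0.40, adjusted p = 0.0243) and Krt77 (3.27, SE 0.51, adjusted p = 0.0323), with Cdsn (3.80), which encodes corneodesmosin, and Dmkn (3.13), which encodes dermokine. Krt10, the most abundant member, was at 2.78 but did not pass (adjusted p = 0.0514). Of 19 genes of the envelope's scaffold and cross-linking, 6 rose and 0 fell. The median log2 fold change was 1.52, and 5 members lay below 0. Those that rose included the histidine-degrading enzyme Hal (3.56), the protease Asprv1 (2.08), which processes filaggrin, the protease inhibitor Spink5 (2.79) and the transglutaminase Tgm5 (1.90), with Ppl (periplakin, 1.70) as the most abundant. The adjusted p of Ppl in edgeR, 0.049955, lay at the threshold. Tgm3, a transglutaminase of hair and epidermis, and Padi3, which citrullinates trichohyalin, were at -0.79 (adjusted p = 0.716) and -3.41 (adjusted p = 0.201). Of 23 transcription factors of terminal differentiation 0 passed in edgeR and 9 had an unadjusted p under 0.05, beside 14.3% of all genes, with a median of 0.03; the most abundant were Jun (-0.53) and Trp63 (0.03). Of 6 tested S100 partners and S100 genes elsewhere 0 passed and 1 had an unadjusted p under 0.05, with Ahnak at 0.81 and Anxa2 at 0.60.

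Among lists of markers for cell types that the sort could hold, those of the hair had the most calls. Of 16 keratins and other markers of hair shaft and inner root sheath, all tested, 0 rose and 7 fell, with a median of -3.25, where 0.673% of all genes were called lower. Krt81 (-3.97), Krt35 (-2.98), Krt25 (-2.45) and Krt86 (-3.63) had the smallest p, and Krt71 (-2.43) was the most abundant. The list summed to 292.5 and 146.5 CPM in Ezh2Y646N libraries and to 2041 and 931 CPM in NrasQ61K libraries, in the same order of libraries as Tchh. Suprabasal genes summed to 69560 and 48910 CPM in Ezh2Y646N libraries and to 6101 and 15070 CPM in NrasQ61K libraries. Of 9 basal keratinocyte markers 0 passed in edgeR and 0 had an unadjusted p under 0.05, and their sums overlapped, at 15400 and 23640 CPM in Ezh2Y646N libraries and 11390 and 25950 CPM in NrasQ61K libraries; Krt5 was at -0.01 and Krt14 at -0.36.

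All 11 melanocyte markers, which are genes of the cell type that the labels name, were detected in each library and summed to 3972 and 4023 CPM in Ezh2Y646N libraries and to 2709 and 3506 CPM in NrasQ61K libraries. None passed in edgeR and 0 had an unadjusted p under 0.05; Dct was at 0.51 and Tyrp1 at 0.05. The suprabasal sum thus exceeded the melanocyte sum in every library. Fibroblast markers summed to 847 and 2084 CPM in Ezh2Y646N libraries and to 4095 and 2450 CPM in NrasQ61K libraries. Of these 10 markers, 2 were called lower (Dpt, -2.08, and Cd34, -1.53), where 0.673% of all genes were. Further, 0 of 11 macrophage, dendritic and Langerhans cell markers and 0 of 7 endothelial markers were called, with medians of -1.32 and -0.73. In edgeR 7 and 2 of them had an unadjusted p under 0.05, beside 14.3% of all genes. Of the neutrophil markers 2 were tested: Mmp9 fell (-2.77), and Cxcr2 was not called at 2.24 (SE 1.18, adjusted p = 0.471), with both Ezh2Y646N libraries above both NrasQ61K libraries. The part of these cell types in the values of the locus was not tested.

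**Figure D5:**
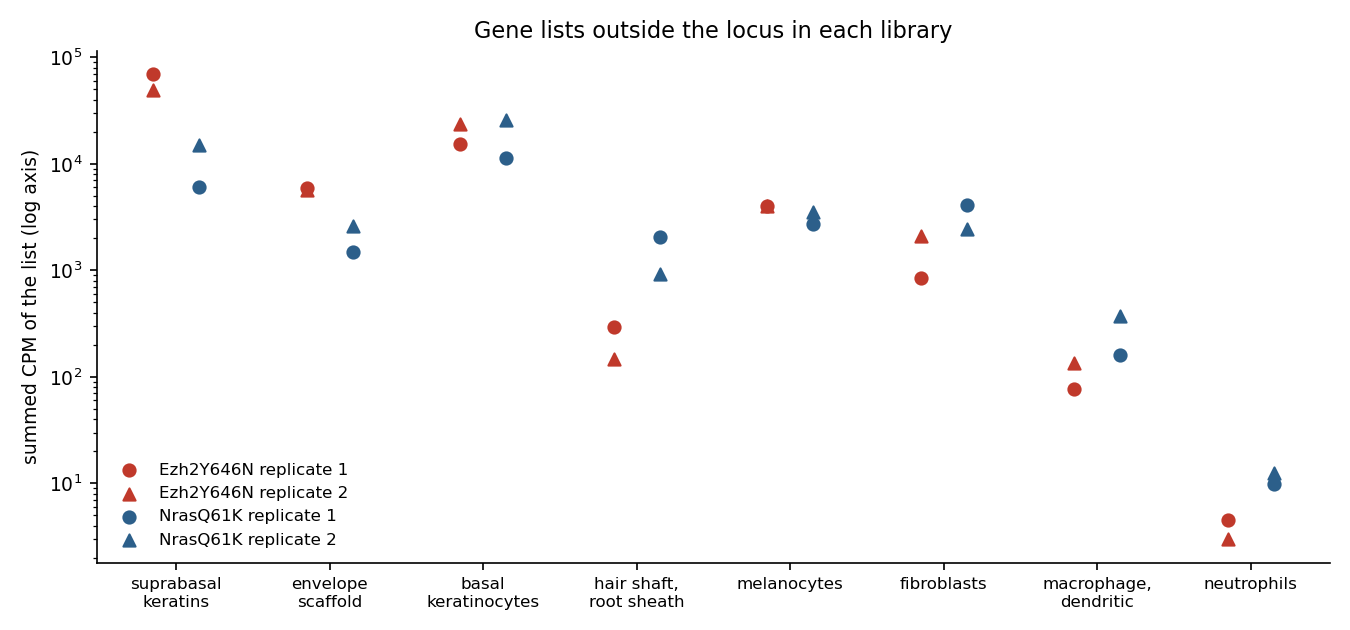
Summed CPM of 8 gene lists outside the locus in each library, on a log axis, Ezh2Y646N in red and NrasQ61K in blue, with circles for replicate 1 and triangles for replicate 2. Suprabasal genes and the envelope's scaffold are higher in both Ezh2Y646N libraries, hair shaft and root sheath markers are lower in both, and basal keratinocyte markers overlap.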

How the data were processed

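Per the submitters' processing notes, the build was GRCm38 and the tools were STAR 2.5.4b, featureCounts, Trimmomatic, bcl2fastq 2.19 and edgeR, with no roles or order given. The deposited values are whole-number counts per Ensembl gene, not normalized; their annotation release, strand setting and handling of multiply matching reads: not given in the sources used here. The library kit was stranded and meant for small inputs of total RNA, per the labels' protocols. Symbols, positions and exonic lengths came from GENCODE M21, which matched 22214 of 22524 identifiers; coordinates are 1-based.

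The test was edgeR 4.0.16 (R 4.3.3) on the counts of all genes, with filterByExpr (at least 10 counts, 15 over all libraries), TMM, and a robust quasi-likelihood fit of group with 2 residual degrees of freedom, with Benjamini-Hochberg adjustment over 14265 genes. SE is the size of the log2 fold change over the square root of F. The biological coefficient of variation was 27.9%, and replicates differed by more than counting noise (chi-square per degree of freedom 40.2 in Ezh2Y646N and 87.8 in NrasQ61K). Limma 3.58.1 and DESeq2 1.42.0 served as alternatives, and the fits were tested on simulated counts. Named members were all called genes, the ends of the locus, Hrnr, Flg2, Tchh, and the 4 members of highest mean CPM in each subfamily; 12 others were named after their values were seen. Of 12 gene lists, called members (at most 4, by p) and the 2 most abundant were to be named, with some others chosen after their values were seen; the result of 1 list is not reported here. The members, lists and motifs were chosen with earlier results of these data known. Shared sequence was counted as 50-base windows of the annotated transcripts found in transcripts of another gene, on either strand.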

Additional observations from a re-analysis of the deposited data

How the results depend on the processing

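With 31 tested members and 13 alternatives, 335 of 399 values kept their direction and their side of the threshold, 14 lost and 37 gained a call, and 13 changed sign, all 13 in members that were not called. Locus genes called higher numbered 11 with no filter on low counts, and 4 to 10 without a single library. Those called lower numbered 1 with RLE size factors, in limma voom, in a non-robust fit and when mitochondrial, haemoglobin and small RNA genes were removed, 4 in DESeq2, 9 with no filter, and 1 to 3 without a single library. The labels pair nothing by replicate number, and the deviations of same-numbered libraries had a correlation of 0.108; with the replicate number as a block, 8 members were higher and 6 lower where 9.37% of all genes were called, Hrnr (4.80, adjusted p = 0.402), Kprp (4.06, 0.163) and 2310050C09Rik (4.15, 0.509) lost their calls, and the calls by subfamily were S100 1 higher and 2 lower, SPRR 1 lower, LCE 2 higher, and fused-type 1 higher and 2 lower.

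By subfamily, S100 calls were 1 higher and 3 lower with no filter, 1 lower with total counts only and in DESeq2, and 0 to 1 in each direction without a single library. SPRR calls were 2 lower with no filter. LCE calls were 1 higher with total counts only, with no filter and with a stricter filter of 50 counts, 2 in DESeq2, and 0 to 1 without a single library. Fused-type calls lower were 0 with RLE size factors, in a non-robust fit and when mitochondrial, haemoglobin and small RNA genes were removed, 2 in DESeq2, 3 with no filter, and 0 to 1 without a single library. Other coding genes were called higher in 7 cases with no filter and 2 to 6 without a single library, and lower in 0 cases in limma voom and 0 to 1 without a single library.

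Medians of the locus were 1.36 with no filter and -0.0515 to 1.22 without a single library. Those of S100 genes ran from -0.75 to 0.20 without a single library, and those of SPRR genes were 0.20 with no filter and -1.74 to 0.21 without a single library. LCE medians were 3.81 with no filter, 4.81 with the stricter filter, 4.70 in limma voom and 3.998 to 6.12 without a single library. The fused-type median was 0.85 with the stricter filter, which leaves fewer genes, and -2.10 to -0.47 without a single library; that of other coding genes was 1.54 to 2.78. Log2 ratios of mean library shares without a single library were -1.87 to 0.13 for SPRR, 3.54 to 4.87 for LCE and -0.61 to 0.15 for fused-type genes. For the other changes the cause was not tested.

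Members that changed sign without a single library ranged from -1.02 to 0.84 (Rptn), -0.0687 to 0.65 (S100a10), -0.77 to 0.32 (S100a13), -0.16 to 0.19 (S100a14), -0.33 to 0.22 (S100a16), -0.42 to 1.41 (S100a4), -1.88 to 0.30 (Sprr1a) and -1.26 to 0.11 (Sprr2a3); S100a14 was also at 0.0049 with RLE size factors and 0.0048 in DESeq2. Total counts only moved the median of all genes by -0.12 on the log2 scale. Depth limits the LCE and Sprr2 genes, most of which had under 20 counts per library.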
